A study of Mus musculus with 23 samples.

Results

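The genes described here are 38 genes of the lysosome and of autophagy, read on expression arrays of mouse embryonic fibroblasts that carried oncogenic H-Ras and different p53 alleles. They were chosen by symbol from a fixed list, of which 25 encode lysosomal proteins or their regulator and 13 encode the autophagy machinery. The list was chosen with earlier results of these data known. All 38 were among the 18193 genes on the array, and 37 passed the filter on low values that left 15266 genes for the tests. The exception was Ctss, the cysteine protease cathepsin S, whose log2 level lay between 3.83 and 4.32 in the 23 arrays.

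The study asked what the transactivation domains of p53 contribute to gene expression in fibroblasts in which H-Ras V12 can trigger premature senescence, a stable arrest of growth that p53-null fibroblasts escape. Every cell population had received H-Ras V12 from a retrovirus, the controls included. The 25,26 cells (5 arrays) carried a p53 allele with residues 25 and 26, in its first transactivation domain, replaced. The 53,54 cells (3 arrays) carried the change at residues 53 and 54, in the second domain, and the QM cells (3 arrays) carried all 4 substitutions. These knock-in alleles lay behind a LoxP-flanked stop cassette (LSL), which Cre from an adenovirus removes. The WT group (6 arrays) joined LSL-WT cells given Adeno-Cre (replicates 1 to 3) and cells with an unmodified wild-type gene given Adeno-Cre (replicates 4 to 6). The Null group (6 arrays) joined LSL-WT cells given an empty adenovirus, in which the cassette was left in place (replicates 1 to 3), and p53_null cells given Adeno-Cre (replicates 4 to 6). Cells came from 129/Sv or from mixed 129/Sv/C57BL6 mice, and the age of the embryos is not given in the sources used here. The mixed background was that of 1 of 5 25,26 arrays, 2 of 3 53,54, 1 of 3 QM, 3 of 6 WT and 2 of 6 Null arrays. Within the Null group it was that of 2 of 3 LSL-WT arrays and 0 of 3 p53_null arrays. The labels do not say whether replicates came from separate embryos or cultures, and p-values here take in no more than the scatter between these arrays. The label of WT replicate 6 names the LSL-WT genotype while its title names the unmodified gene, and it was grouped by its title. Null replicate 6 was grouped by its title too, which names Null cells, while its genotype label adds the word knock-in to p53_null.

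The lysosome is the acidic organelle in which cathepsins and glycosidases break down proteins and sugars. A proton pump of many subunits, the V-ATPase, keeps it acidic, and heavily glycosylated membrane proteins such as LAMP1 and LAMP2 line its wall. Autophagy wraps cytoplasm in a double membrane and hands it to the lysosome: ULK kinases and the Beclin 1 complex start the membrane, and a ubiquitin-like conjugation chain ties LC3 to it. The transcription factor TFEB is known to act on many lysosomal genes through an E-box motif near their start. Senescent cells are known for an enlarged lysosomal compartment, and the β-galactosidase activity used to stain them comes from the enzyme that Glb1 encodes.

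The promoters of 5 members are shown because they belong to genes that the comparisons below turn on, and because each holds the core of that motif. Windows from 250 bases before to 50 after the start were taken from RefSeq (GRCm38.p6) for 32 of the 38 members. Ctsb, Ctsh, Npc1, Atg12, Atp6v1h and Becn1 were not matched. Each sequence runs 5′ to 3′ over the 130 bases before the start and the first 20 of the gene, and capitals mark CACGTG, which reads the same on both strands. The stretches are chr7:142387808-142387957 on the minus strand for Ctsd, chr19:4855035-4855184 on the plus strand for Ctsf and chr8:13159031-13159180 on the plus strand for Lamp1. Those of Atp6v0d1 and Glb1 are chr8:105566045-105566194 on the minus strand and chr9:114400948-114401097 on the plus strand.
Ctsd: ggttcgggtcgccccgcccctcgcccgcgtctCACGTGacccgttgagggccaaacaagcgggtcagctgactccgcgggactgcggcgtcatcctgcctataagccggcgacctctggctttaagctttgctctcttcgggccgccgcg
Ctsf: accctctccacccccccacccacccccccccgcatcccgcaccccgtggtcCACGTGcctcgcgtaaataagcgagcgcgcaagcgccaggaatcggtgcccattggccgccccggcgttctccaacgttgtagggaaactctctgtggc
Lamp1: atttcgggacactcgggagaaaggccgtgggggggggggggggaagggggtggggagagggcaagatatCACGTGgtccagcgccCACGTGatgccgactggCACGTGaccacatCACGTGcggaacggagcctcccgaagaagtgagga
Atp6v0d1: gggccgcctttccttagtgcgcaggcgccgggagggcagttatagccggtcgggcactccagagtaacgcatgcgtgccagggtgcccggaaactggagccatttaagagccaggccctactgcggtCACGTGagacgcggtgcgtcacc
Glb1: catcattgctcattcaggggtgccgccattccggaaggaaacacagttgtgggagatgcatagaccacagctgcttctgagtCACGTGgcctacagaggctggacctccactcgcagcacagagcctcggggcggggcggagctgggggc

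The Lamp1 stretch holds 4 copies of the core and the other 4 stretches hold 1 each. CACGTG was found in the window of 12 of 32 members (37.5%), in 12 of 46 other lysosomal genes with a window (26.1%) and in 2187 of all 27025 windows (8.09%). The longer TCACGTG, searched on both strands and always overlapping the core, was found in 9 members (28.1%) against 4.29% of all windows. It was in 12 of the 46 other lysosomal genes (26.1%). Ctsf, Ctsl and Atg5 had the core without this flanking T. The full palindrome of the CLEAR motif was in none of the 32 windows, in 2 of the 46 other lysosomal genes (4.35%) and in 0.37% of all windows. A half-site of the p53 response element was in the windows of Cd68, Hexa, Gusb and Vmp1, which is 12.5% of members against 9.55% of all windows. Of the 9 members with TCACGTG, 7 were among those that passed the test as higher in WT than in Null cells below, and of the 23 with a window but no match, 10 were. Ctsh, Atg12, Atp6v1h and Becn1, which passed that test too, had no window and are in neither count. The same counts over all genes were not made, so a link between motif and difference was not tested. A match describes letters in this window and says nothing about which factor binds there.

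**Figure D1:**
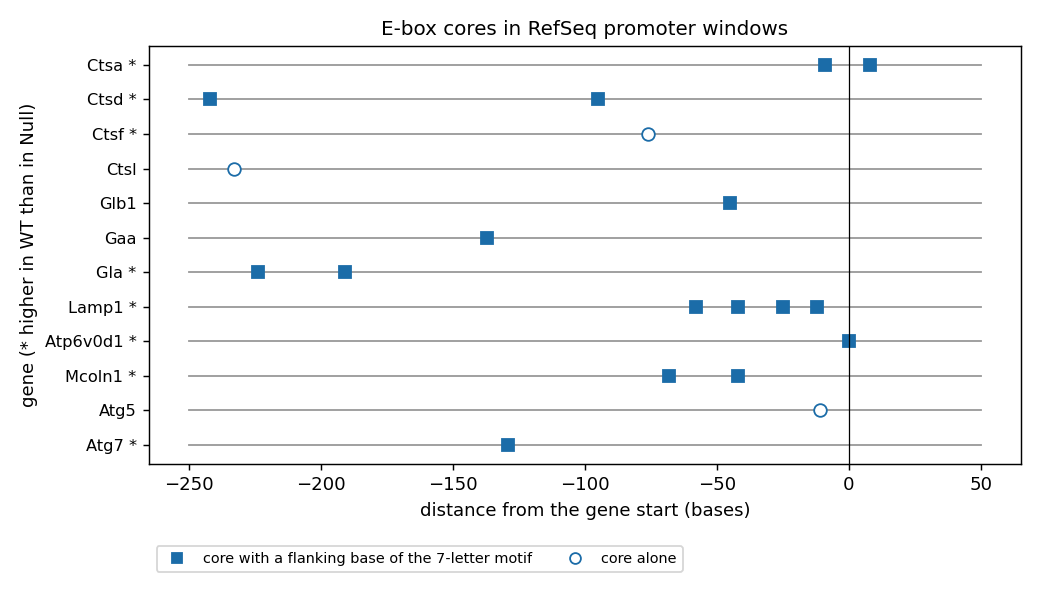
Position of each CACGTG core (points; x axis, distance from the gene start in bases) in the promoter windows of the 12 members that hold one, with filled squares where the flanking T makes TCACGTG and open circles for the core alone. Asterisks mark the members that were higher in WT than in Null cells; Lamp1 holds 4 cores, Ctsa, Ctsd, Gla and Mcoln1 hold 2 each.

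Values below are log2 of the deposited array intensities, so a difference of 1 is a doubling. They compare a gene with itself across arrays, and no gene's level is set against another's. Array medians lay between 59.9 and 64.2 intensity units. Pairs of arrays correlated at a Pearson r of 0.949 to 0.997 across genes. A gene "passed the test" where limma's moderated test, adjusted by Benjamini-Hochberg over all 15266 genes, gave a p below 0.05. All 12 fibroblast markers were above the filter level in every array. The X-inactivation transcript Xist was above a log2 level of 8 in 4 of 5 25,26 arrays, 1 of 3 53,54, 2 of 3 QM, 4 of 6 WT and 1 of 6 Null arrays, an uneven split of the sexes. In these bulk samples, less RNA of a gene per cell and fewer cells that make it cannot be told apart. The transcripts of p53 and of H-Ras themselves were not analysed here.

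WT cells had higher levels of much of the lysosomal and autophagy machinery than Null cells. The lysosomal proteases Ctsf, Ctsh and Ctsd, the membrane glycoprotein Cd68 and the proton pump subunit Atp6v0d1 were each at least 2-fold higher, Ctsf by the 1 of its 2 probe sets used here. Of the 37 members tested, 21 passed as higher and 0 as lower, where 10.9% of all genes passed as higher and 11.8% as lower. The median difference over the members was 0.39, against 0.00 over all genes tested. A positive difference was seen in 36 of 37 members and in 50.3% of all genes, a count without a test. In 12 members every WT array was above every Null array, which held for 5.04% of all genes. With the title number as a block, 24 members passed as higher, where 33.8% of all genes passed in either direction. With Xist as a covariate 18 members passed, where 18.4% of all genes did, and Hexa, Psap, Ulk2, Becn1 and Sqstm1 were lost while Glb1 and Npc2 were gained.

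**Figure D2:**
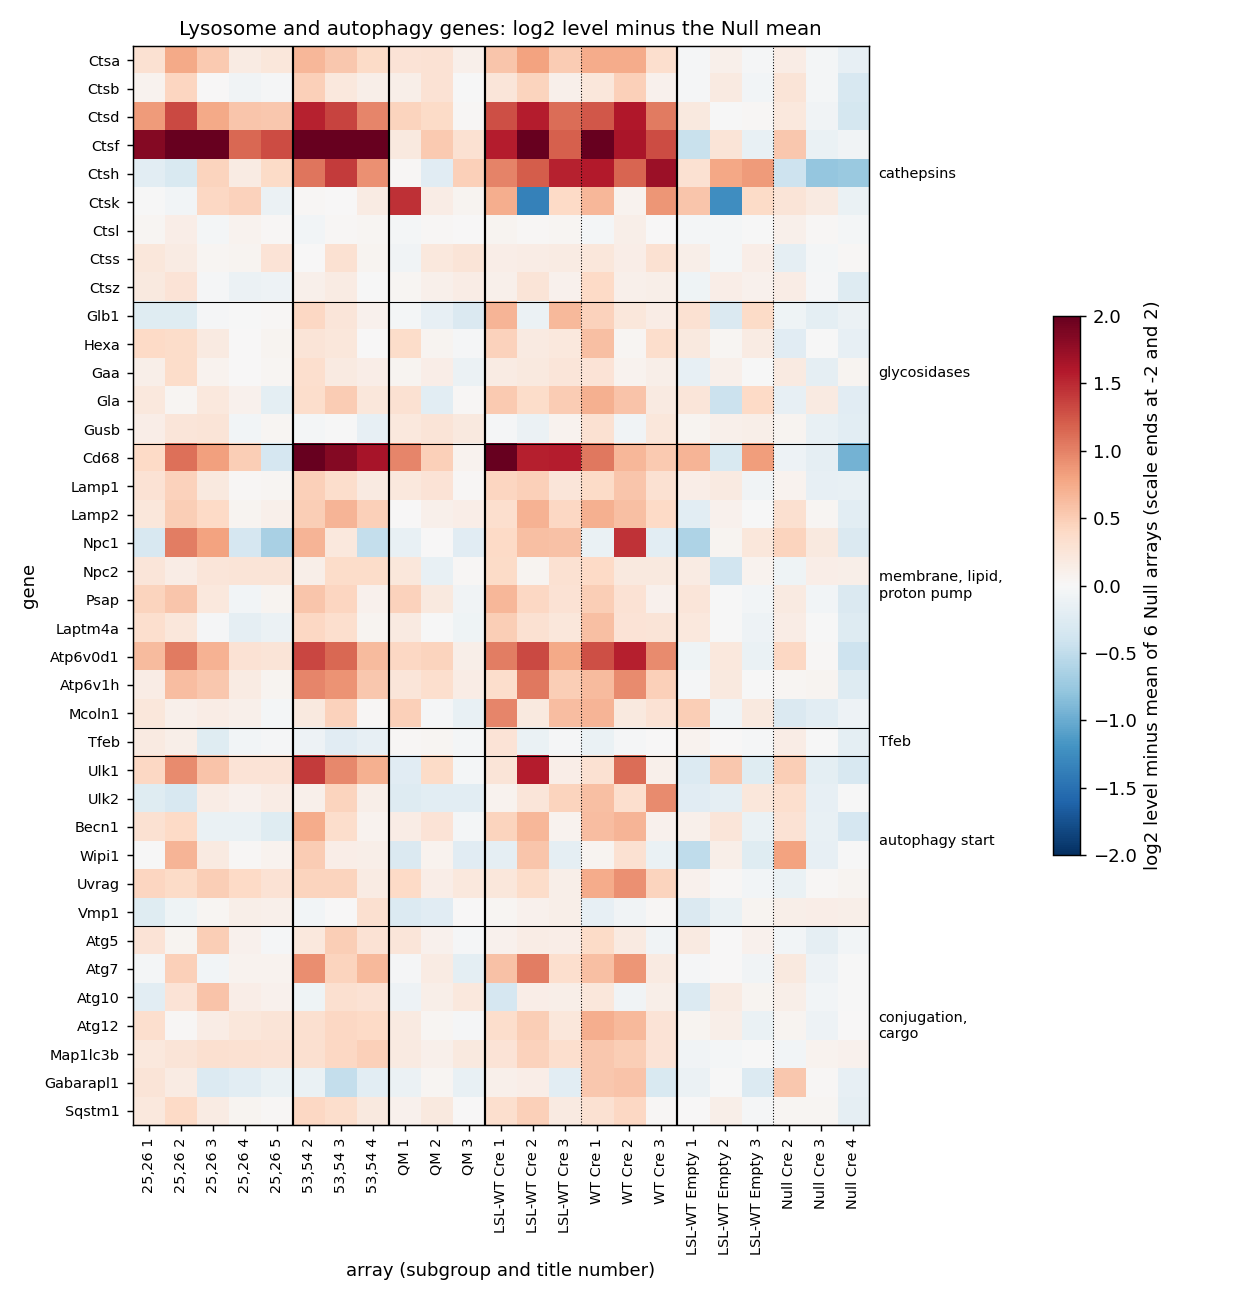
Difference of each array from the Null mean (log2, colour scale) for all 38 genes, ordered by role, with the 25,26, 53,54, QM, WT and Null arrays side by side. The median over the 37 members tested runs from 0.05 to 0.36 in 25,26 arrays, 0.18 to 0.41 in 53,54, 0.00 to 0.17 in QM, 0.19 to 0.54 in WT and -0.17 to 0.14 in Null arrays.

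Among the 8 proteases tested, 4 passed as higher in WT than in Null cells. Ctsf encodes a lysosomal cysteine protease (chromosome 19, 4855165 to 4860918, GRCm38.p6). Its log2 level had a lowest, median and highest value of 8.05, 8.45 and 9.25 in WT arrays, against 6.41, 6.74 and 7.39 in Null arrays. The groups did not overlap, and the difference was 1.71 ± 0.22 (SE), or 3.28-fold (adjusted p = 7.45e-06). With its 2 probe sets averaged the Ctsf difference was 0.94 (adjusted p = 1.89e-06), since the second gave 0.17. Ctsd encodes the main lysosomal aspartic protease (chromosome 7, 142375910 to 142387827). It lay at 12.83, 13.06 and 13.39 in WT arrays, against 11.44, 11.80 and 12.005 in Null arrays, again with no overlap. The difference of 1.31 ± 0.14 (2.48-fold, adjusted p = 8.02e-07) passed with any of the 12 arrays left out, as did that of Ctsf. Ctsh, a lysosomal aminopeptidase (chromosome 9, 90054267 to 90076095), lay at 9.66, 10.04 and 10.38 in WT arrays, against 7.89, 8.61 and 9.51 in Null arrays. It was 2.59-fold higher (1.37 ± 0.25, adjusted p = 3.79e-04), with its Null arrays falling into a higher and a lower set that are described with the components of this comparison below. Ctsa, the carboxypeptidase that shields β-galactosidase from degradation, differed by 0.62 ± 0.10 (adjusted p = 9.78e-05), or 0.35 with its probe sets averaged, and did not overlap either. The other 4 did not pass. Ctsb, a cysteine protease, differed by 0.26 ± 0.11 (adjusted p = 0.0899) and passed with the title number as a block (0.22, adjusted p = 6.40e-04). Ctsl, another cysteine protease, was between 14.49 and 14.68 in all 23 arrays, with a difference of 0.04 ± 0.05. Ctsk, best known from bone resorption, was at 7.74 in WT replicate 2 and 7.85 in Null replicate 2 and between 8.96 and 10.54 in the other arrays. Ctsz lay at 12.60, 12.63 and 12.91 in WT arrays, against 12.26, 12.54 and 12.66 in Null arrays, with overlap.

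**Figure D3:**
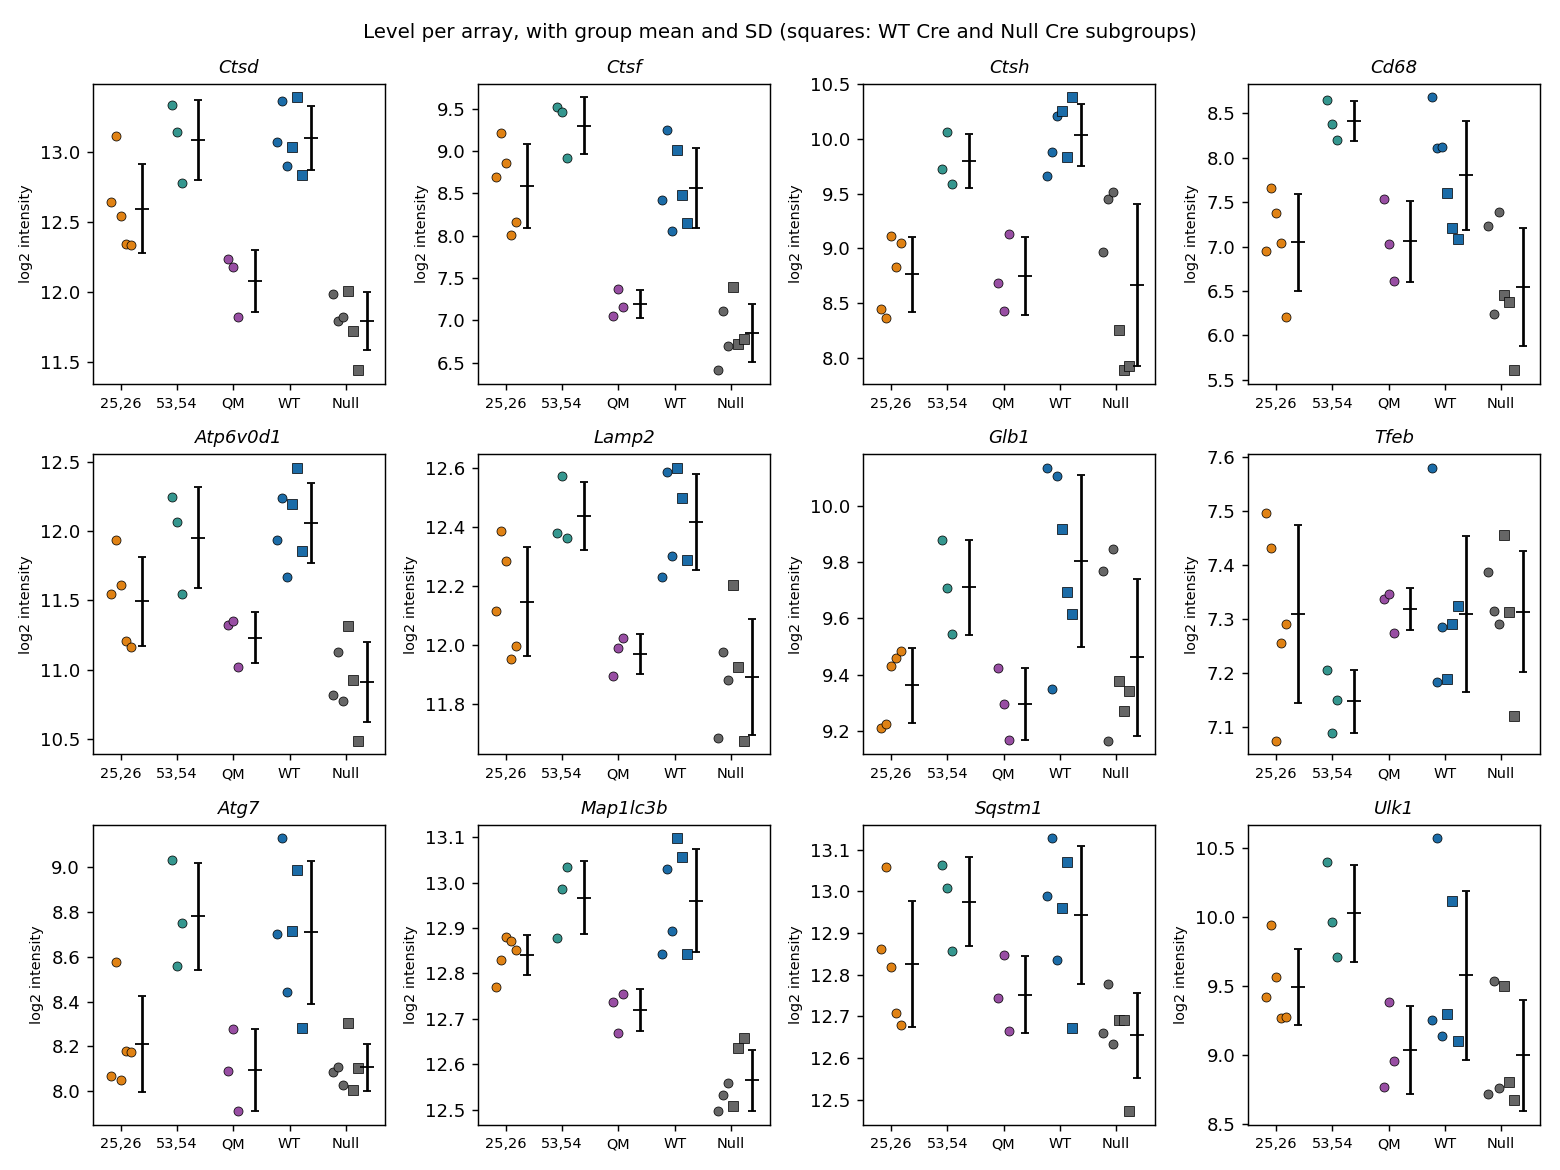
Log2 level of selected members in each array (points, y axis) with group means and SD, for 25,26, 53,54, QM, WT and Null cells. For Ctsd the WT points lie between 12.83 and 13.39 and the Null points between 11.44 and 12.005, while the Tfeb points of those groups lie between 7.12 and 7.58.

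The 5 glycosidases differed less. Glb1, the β-galactosidase gene (chromosome 9, 114401078 to 114474379), lay at 9.35, 9.81 and 10.13 in WT arrays, against 9.17, 9.36 and 9.84 in Null arrays. The groups overlapped, and the difference of 0.34 ± 0.13 had a 95% confidence interval of 0.07 to 0.62 and did not pass over all genes (adjusted p = 0.071). It passed with Xist as a covariate (0.44, adjusted p = 0.0204). Gla, α-galactosidase A, passed at 0.48 ± 0.13 (adjusted p = 0.00925). Hexa, a subunit of β-hexosaminidase, passed at 0.31 ± 0.11 (adjusted p = 0.0415). The Hexa call was lost when any of WT replicates 1, 4 and 6 or of Null replicates 2, 4, 5 and 6 was left out (0.25 to 0.32, adjusted p = 0.0565 to 0.109). Gaa, which degrades glycogen, and Gusb, β-glucuronidase, gave 0.17 and 0.06 and did not pass.

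Of the 10 genes for membrane proteins, lipid handling and acidification, 8 passed as higher in WT than in Null cells. Atp6v0d1, a subunit of the V-ATPase's membrane sector (chromosome 8, 105524461 to 105566064), lay at 11.67, 12.07 and 12.46 in WT arrays, against 10.49, 10.87 and 11.32 in Null arrays. The groups were apart by 1.15 ± 0.16 (2.22-fold, adjusted p = 2.19e-05). Atp6v1h, of the pump's cytosolic sector, differed by 0.66 ± 0.13 (adjusted p = 4.85e-04). That call ended when the probe sets of a gene were averaged (0.19, adjusted p = 0.286), since a second Atp6v1h probe set gave -0.12. Lamp1 lay at 13.45, 13.61 and 13.75 in WT arrays, against 13.03, 13.20 and 13.38 in Null arrays. Lamp2 lay at 12.23, 12.40 and 12.60 in WT arrays, against 11.67, 11.90 and 12.20 in Null arrays. Neither pair overlapped, with differences of 0.40 ± 0.09 (adjusted p = 0.00209) for Lamp1 and 0.53 ± 0.10 (adjusted p = 4.12e-04) for Lamp2, the second being 0.33 with its probe sets averaged. Cd68, a membrane glycoprotein of late endosomes and lysosomes that macrophages hold in abundance (chromosome 11, 69664213 to 69666170), lay at 7.08, 7.86 and 8.68 in WT arrays, against 5.61, 6.41 and 7.39 in Null arrays. It was 2.38-fold higher (1.25 ± 0.30, adjusted p = 0.00428), with overlap between the groups. The test was also passed by Mcoln1, a lysosomal cation channel (0.49 ± 0.15, adjusted p = 0.0186), Psap, the precursor of the saposins (0.37 ± 0.13, adjusted p = 0.0377), and the membrane protein gene Laptm4a (0.36 ± 0.10, adjusted p = 0.0135). Psap did not pass with any of WT replicates 1, 2 and 4 or of Null replicates 2, 3, 5 and 6 left out (0.31 to 0.37, adjusted p = 0.0588 to 0.097), nor Mcoln1 without WT replicate 1 (0.39, adjusted p = 0.0512). Npc1 and Npc2, which pass cholesterol out of the lysosome, gave 0.45 ± 0.30 (adjusted p = 0.339) and 0.25 ± 0.09 (adjusted p = 0.0521). Npc2 passed with the title number as a block (0.24, adjusted p = 0.00434) and with Xist as a covariate (0.31, adjusted p = 0.0238).

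Tfeb, the transcription factor of the lysosomal genes, had the same level in both groups within its spread. It lay at 7.18, 7.29 and 7.58 in WT arrays, against 7.12, 7.31 and 7.46 in Null arrays. The difference of -0.00 ± 0.08 (adjusted p = 0.98) had a 95% confidence interval of -0.17 to 0.16. The arrays measure its transcript and not where the protein sits in the cell, which is known to set its activity.

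Of the 6 genes that start the autophagosome, 3 passed as higher in WT than in Null cells. Uvrag, a partner of Beclin 1, lay at 10.01, 10.30 and 10.81 in WT arrays, against 9.77, 9.92 and 9.97 in Null arrays, with no overlap (0.47 ± 0.11, adjusted p = 0.00248). Ulk2, a kinase, differed by 0.44 ± 0.13 (adjusted p = 0.0214) and Becn1, which encodes Beclin 1, by 0.43 ± 0.15 (adjusted p = 0.0424). With probe sets averaged Ulk2 gave 0.21 and did not pass (adjusted p = 0.121), while Becn1 gave 0.28 and did. Both calls ended when some arrays were left out. Ulk2 did not pass without Null replicate 1 or 5 or WT replicate 6 (0.33 to 0.40, adjusted p = 0.0503 to 0.0574), nor Becn1 with any of WT replicates 1, 2, 4 and 5 or of Null replicates 1, 3, 5 and 6 left out (0.36 to 0.45, adjusted p = 0.0507 to 0.107). The kinase gene Ulk1 lay at 9.10, 9.27 and 10.57 in WT arrays, against 8.67, 8.78 and 9.53 in Null arrays. Its difference of 0.58 ± 0.24 did not pass (adjusted p = 0.0859) and passed with the title number as a block (0.57, adjusted p = 5.13e-04). Wipi1, which binds the lipid of the forming membrane, and Vmp1, a membrane protein of the endoplasmic reticulum, gave 0.07 and 0.01 and did not pass.

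Of the 7 genes for conjugation and cargo, 4 passed as higher in WT than in Null cells. Map1lc3b, which encodes the LC3 protein that is tied to the membrane, lay at 12.84, 12.96 and 13.10 in WT arrays, against 12.50, 12.55 and 12.66 in Null arrays. The difference was small, 0.39 ± 0.06, and the groups did not overlap (adjusted p = 4.48e-05). Atg7, the enzyme that activates LC3 and ATG12, lay at 8.28, 8.71 and 9.13 in WT arrays, against 8.01, 8.09 and 8.31 in Null arrays (0.60 ± 0.13, adjusted p = 0.00132). The groups overlapped by WT replicate 6 and Null replicate 4 alone. Atg12, the ubiquitin-like protein joined to ATG5, differed by 0.45 ± 0.08 (adjusted p = 4.26e-04) with no overlap. Sqstm1, which encodes the cargo receptor p62, lay at 12.67, 12.97 and 13.13 in WT arrays, against 12.47, 12.68 and 12.78 in Null arrays. It passed at 0.29 ± 0.08 (adjusted p = 0.0138), though not with Xist as a covariate, where its difference was 0.24 (adjusted p = 0.0556), nor with its probe sets averaged (0.18, adjusted p = 0.212). Atg5, Atg10 and the LC3 relative Gabarapl1 gave 0.14, 0.03 and 0.14 and did not pass.

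**Figure D4:**
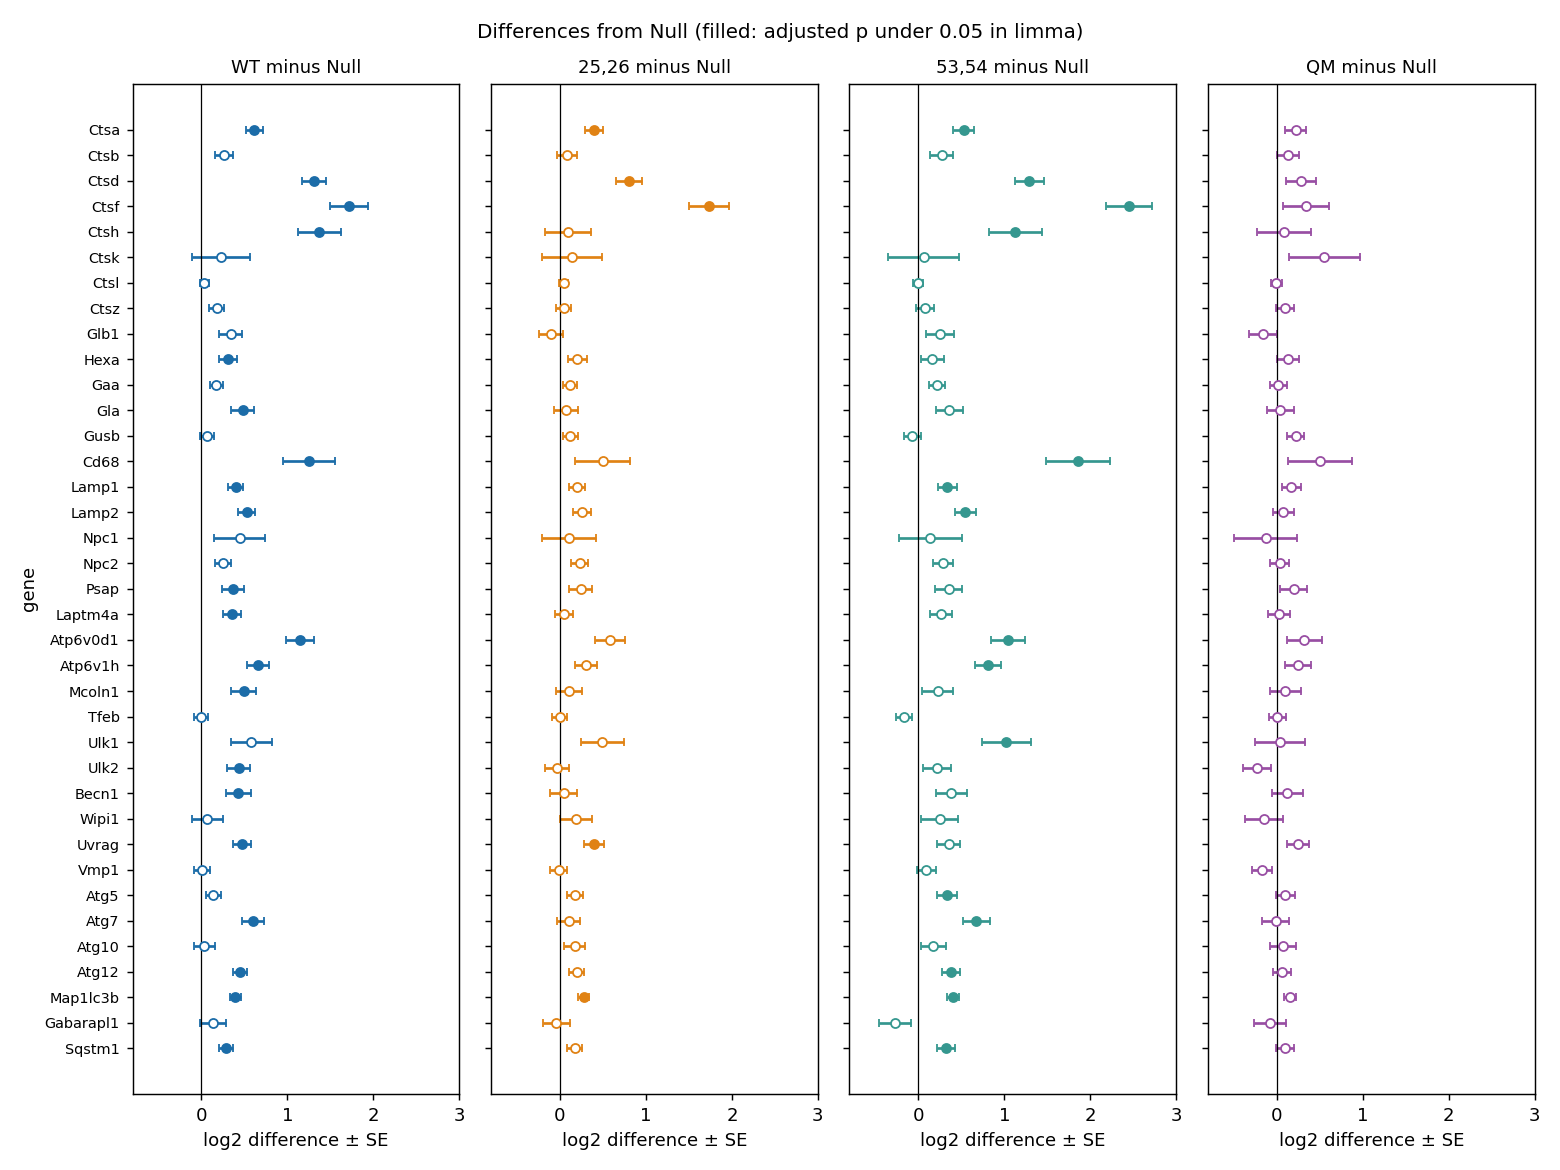
Log2 difference from Null (x axis, ± SE) of each member in WT, 25,26, 53,54 and QM cells, all of which share the same 6 Null arrays. Filled points passed the test, which 21 of 37 members did in WT cells, 5 in 25,26, 15 in 53,54 and 0 in QM cells.

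In 25,26 cells, with the first transactivation domain changed, a small set of members was above its Null level, led by the proteases Ctsf and Ctsd. Of 37 members, 5 passed as higher than in Null cells and 0 as lower, where 3.02% of all genes passed as higher. The median difference was 0.17, against 0.01 over all genes, and in 5 members every 25,26 array was above every Null array (3.19% of all genes). Differences were positive in 32 of 37 members and in 51.8% of all genes, again without a test. Ctsf stood at 8.69, 9.21, 8.86, 8.004 and 8.16 in 25,26 arrays, all above the Null maximum of 7.39, and was 3.33-fold higher (1.73 ± 0.23, adjusted p = 5.58e-05), or 0.88 with its probe sets averaged (adjusted p = 4.52e-05). Ctsd stood at 12.64, 13.11, 12.54, 12.34 and 12.33 in 25,26 arrays, also all above its highest Null array (0.80 ± 0.15, adjusted p = 0.00192). Map1lc3b (0.28 ± 0.06, adjusted p = 0.012), Ctsa (0.39 ± 0.10, adjusted p = 0.0327) and Uvrag (0.40 ± 0.11, adjusted p = 0.0481) passed at smaller sizes. Uvrag failed when any of the 11 arrays was left out (0.37 to 0.42, adjusted p = 0.0598 to 0.122). Ctsa failed without 25,26 replicate 2 or 3 or Null replicate 1, 3, 5 or 6 (0.31 to 0.39, adjusted p = 0.0559 to 0.117), and leaving out any 1 of those 6 arrays left 3 members that passed. Averaged probe sets gave 0.25 for Ctsa (adjusted p = 0.0593). Ctsh was not among them, at 8.45, 8.36, 9.11, 8.83 and 9.05 in 25,26 arrays, within its Null range (0.10 ± 0.27, 95% confidence interval -0.46 to 0.65). Glb1 gave -0.10 ± 0.14 and Cd68 0.50 ± 0.32, neither of which passed. The block for the title number gave 12 members as higher, where 14.2% of all genes passed in either direction. The 7 that the block added were Lamp1, Lamp2, Psap, Atp6v0d1, Atp6v1h, Ulk1 and Sqstm1. With Xist as a covariate, 2 members passed, Ctsf and Ctsd, where 2.27% of all genes did. Map1lc3b (0.26, adjusted p = 0.0592), Ctsa and Uvrag were lost with it.

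In 53,54 cells, with the second transactivation domain changed, proteases, membrane proteins and autophagy genes were above their Null level. Of 37 members, 15 passed as higher than in Null cells and 0 as lower, where 9.22% of all genes passed as higher. The median difference was 0.32, against -0.02 over all genes, and in 15 members every 53,54 array was above every Null array (9.32% of all genes). Ctsf stood at 9.53, 9.46 and 8.92 in 53,54 arrays and was 5.47-fold above Null cells (2.45 ± 0.27, adjusted p = 1.13e-06), or 1.26 with its probe sets averaged (adjusted p = 6.43e-07). Cd68 stood at 8.65, 8.38 and 8.20 in 53,54 arrays, all above the Null maximum of 7.39, and was 3.63-fold higher (1.86 ± 0.37, adjusted p = 8.96e-04). Ctsd, Ctsh and Atp6v0d1 followed with 1.29 ± 0.17 (adjusted p = 1.16e-05), 1.13 ± 0.31 (adjusted p = 0.012) and 1.04 ± 0.20 (adjusted p = 5.52e-04). Lamp1, Lamp2, Ctsa and Atp6v1h passed among the remaining lysosomal genes, between 0.34 and 0.81. Among autophagy genes Ulk1, at 10.40, 9.96 and 9.71 in 53,54 arrays, was 1.03 ± 0.29 higher (adjusted p = 0.0141). Atg7 (0.67), Map1lc3b (0.40), Atg12 (0.38), Atg5 (0.34) and Sqstm1 (0.32) passed as well. Glb1 at 0.25 ± 0.16 (adjusted p = 0.348) and Tfeb at -0.17 ± 0.10 (adjusted p = 0.278) did not.

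Several of these calls depended on 1 of the 3 arrays of 53,54 cells. Without 53,54 replicate 3, Ctsh (0.99, adjusted p = 0.0829) and Atg12 (0.37, adjusted p = 0.0545) did not pass, and without 53,54 replicate 2, Ulk1 did not (0.84, adjusted p = 0.104). Lamp1 was lost without 53,54 replicate 2 or 3 or Null replicate 3, 5 or 6 (0.27 to 0.33, adjusted p = 0.0586 to 0.184). Sqstm1 was lost without 53,54 replicate 2 or 3 or Null replicate 6 (0.28 to 0.30, adjusted p = 0.0577 to 0.135), and Atg5 without 53,54 replicate 3 or 4 or Null replicate 2, 4, 5 or 6 (0.26 to 0.36, adjusted p = 0.0572 to 0.246). With probe sets averaged, Sqstm1 (0.15, adjusted p = 0.472), Atp6v1h (0.40, adjusted p = 0.063) and Atg5 (0.34, adjusted p = 0.0701) did not pass, and Lamp2 gave 0.34 in place of 0.55. Atg5 was lost under 6 of the 10 other settings. With the title number as a block, 24 members passed as higher, where 31.8% of all genes passed in either direction. Ctsb, Hexa, Gaa, Gla, Npc2, Psap, Laptm4a, Becn1 and Uvrag were those added.

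In QM cells, with both transactivation domains changed, no member passed against Null cells in either direction. At an unadjusted p under 0.05, 2 did, Gusb and Map1lc3b, as did 2.47% of all genes, and limma called 0.0131% of all genes after adjustment. Each other setting of limma also called 0 members. The median difference was 0.10, against 0.01 over all genes. A positive difference was seen in 29 of 37 members and in 54.1% of all genes, a count without a test. In 3 members every QM array was above every Null array (0.95% of all genes). Ctsf stood at 7.05, 7.37 and 7.15 in QM arrays, inside its Null range (0.34 ± 0.27, 95% confidence interval -0.22 to 0.91). Ctsd stood at 12.23, 12.18 and 11.82 in QM arrays, with 2 of the 3 above the highest Null array (0.29 ± 0.17, 95% confidence interval -0.07 to 0.64). Those intervals lie below the differences of 1.71 and 1.31 between WT and Null cells. Map1lc3b, at 12.74, 12.67 and 12.75 in QM arrays, was just above its Null maximum of 12.66 (0.15 ± 0.07), and Glb1 gave -0.16 ± 0.16.

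Against WT cells, QM cells had lower levels of proteases, of the pump subunit Atp6v0d1 and of the autophagy kinase Ulk2. In QM cells 11 members were lower than in WT cells and 0 were higher, where 5.76% of all genes passed as lower. Ctsf fell by 1.37 on the log2 scale (SE 0.27, adjusted p = 0.0015; -0.75 with its probe sets averaged), Ctsh by 1.28 (SE 0.31, adjusted p = 0.00703) and Ctsd by 1.02 (SE 0.17, adjusted p = 3.24e-04). Atp6v0d1 (-0.83 ± 0.20), Ulk2 (-0.66 ± 0.16), Atg7 (-0.61 ± 0.16) and Lamp2 (-0.45 ± 0.12) also fell. Glb1 stood at 9.42, 9.30 and 9.17 in QM arrays, against 9.35, 9.81 and 10.13 as the lowest, median and highest of the WT arrays, and fell by 0.51 (SE 0.16, adjusted p = 0.0409). The Glb1 call was lost without any QM array or WT replicate 1, 3 or 4 (-0.57 to -0.44, adjusted p = 0.0685 to 0.171). Ctsa (-0.40), Atg12 (-0.39) and Map1lc3b (-0.24) completed the 11, and every QM array was below every WT array in 12 members (6.55% of all genes). Ctsa and Map1lc3b were lost without any QM array or WT replicate 2, 4 or 5 (adjusted p = 0.0606 to 0.163 for Ctsa and 0.0575 to 0.136 for Map1lc3b). Without QM replicate 3, 5 members passed, with Atp6v0d1 (-0.72, adjusted p = 0.0553) and Atg7 (-0.52, adjusted p = 0.0771) among those lost. Without QM replicate 2, 6 passed, with Ctsh lost (-1.12, adjusted p = 0.0542), and Lamp2 was lost without QM replicate 1 (-0.41, adjusted p = 0.0783). Atg12 was lost without QM replicate 2 or 3 (-0.37 to -0.35, adjusted p = 0.0601 to 0.0815). With probe sets averaged, Lamp2 (-0.28, adjusted p = 0.0872) and Atg12 (-0.26, adjusted p = 0.0735) did not pass, and Ulk2 (-0.41), Atg7 (-0.39) and Map1lc3b (-0.36) did. Under the block for the title number 20 members were lower, where 26.4% of all genes passed in either direction. The 9 added were Lamp1, Gla, Npc2, Laptm4a, Atp6v1h, Mcoln1, Ulk1, Becn1 and Sqstm1.

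In 25,26 cells 5 members were lower than in WT cells and 0 were higher, where 3.36% of all genes passed as lower. Ctsh fell by 1.27 on the log2 scale (SE 0.27, adjusted p = 0.00479) and was the 1 member with every 25,26 array below every WT array (2.22% of all genes). Atp6v0d1 (-0.57 ± 0.17, adjusted p = 0.0448), Ctsd (-0.51 ± 0.15, adjusted p = 0.038), Atg7 (-0.50 ± 0.13, adjusted p = 0.0243) and Ulk2 (-0.47 ± 0.14, adjusted p = 0.0438) fell less. Ctsf did not differ beyond its error (0.02 ± 0.23, 95% confidence interval -0.46 to 0.51). Apart from Ctsh these calls were fragile. Without 25,26 replicate 3, 4 or 5 or WT replicate 5, Ctsh alone passed, 2 members passed without 25,26 replicate 1 or WT replicate 4, and 3 without WT replicate 1 or 2. Ctsd and Atp6v0d1 were lost in each of those 8 cases, at -0.52 to -0.44 and -0.60 to -0.48. Atg7 was lost in 6 of the 11 cases of an array left out (-0.49 to -0.41) and Ulk2 in 9 (-0.51 to -0.37). Averaged probe sets gave -0.30 for Ulk2 (adjusted p = 0.0818) and -0.29 for Atg7, which passed. The block for the title number gave 8 members as lower, where 12% of all genes passed in either direction, and the 3 added were Laptm4a, Becn1 and Atg12.

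Between 53,54 and WT cells no member passed in either direction. At an unadjusted p under 0.05, 2 did, Ctsf and Gabarapl1, as did 7.21% of all genes, and limma called 0.367% of all genes after adjustment. Each other setting of limma called 0 members as well. Ctsf gave 0.74 ± 0.27 (adjusted p = 0.435, 95% confidence interval 0.18 to 1.30) and Gabarapl1 -0.41 ± 0.19. Ctsd gave -0.02 ± 0.17, with a 95% confidence interval of -0.37 to 0.34, and Cd68 gave 0.61 ± 0.37 (-0.17 to 1.38).

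Across the 5 groups, 15 of 37 members passed the moderated F test, where 21.1% of all genes did, and 25 passed with the title number as a block, where 35.1% of all genes did. The group means of Ctsd were 12.59 ± 0.32 in 25,26, 13.08 ± 0.28 in 53,54, 12.08 ± 0.22 in QM, 13.10 ± 0.23 in WT and 11.79 ± 0.21 in Null cells (SD, n = 5, 3, 3, 6 and 6). The 53,54 and WT means were therefore neighbours at the top, and QM and Null were the lowest. Neither pair passed the test, though the QM mean was above the Null mean. Ctsh had another order, with means of 8.76 ± 0.34 in 25,26, 9.79 ± 0.25 in 53,54, 8.75 ± 0.36 in QM, 10.04 ± 0.28 in WT and 8.66 ± 0.74 in Null cells, so that the 25,26 mean stood with those of QM and Null. That Null mean joins LSL-WT Empty arrays at 8.96 to 9.51 and Null Cre arrays at 7.89 to 8.26. The 25,26 arrays, at 8.36 to 9.11, were all above the Null Cre arrays. Ctsf averaged 8.58 ± 0.50 in 25,26, 9.30 ± 0.33 in 53,54, 7.19 ± 0.16 in QM, 8.56 ± 0.47 in WT and 6.85 ± 0.35 in Null cells, so that 25,26 stood with WT. Each comparison of a mutant with Null cells uses the same 6 Null arrays.

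The WT and Null groups each join 2 kinds of cells, so the comparison splits into components without a common array. One component sets LSL-WT cells given Cre against LSL-WT cells given the empty virus. Of 37 members, 9 passed as higher with Cre and 0 as lower, where 4.8% of all genes passed as higher. They were Ctsf (1.83 ± 0.32, adjusted p = 8.04e-04), Cd68 (1.35 ± 0.34, adjusted p = 0.0123), Ctsd (1.25 ± 0.21, adjusted p = 4.33e-04), Atp6v0d1 (1.04 ± 0.24, adjusted p = 0.00567), Atg7 (0.68), Ctsa (0.60), Atp6v1h (0.58), Lamp2 (0.53) and Map1lc3b (0.39). The 3 arrays with Cre and the 3 with empty virus carry the same title numbers, and 32 of 37 members were higher in all 3 same-number pairs, against 28.6% of all genes. The pair differences of Ctsd were 1.09, 1.57 and 1.08, those of Ctsf 2.01, 2.14 and 1.35 and those of Glb1 0.37, 0.18 and 0.26. Gusb was lower in all 3 pairs, as were 33.1% of all genes. With the title number as a block, 20 members passed as higher, where 26.7% of all genes passed in either direction. Without WT replicate 2, 5 members passed, with Lamp2, Ctsa, Atp6v1h and Atg7 lost at 0.37 to 0.51. Cd68 was lost without WT replicate 1 or Null replicate 2 (0.99 to 1.16, adjusted p = 0.0629 to 0.0822). Lamp2 was also lost without Null replicate 1, Atg7 without Null replicate 1 or 3, and Atp6v1h in 5 of the 6 cases (0.37 to 0.65). With probe sets averaged, Lamp2 (0.30, adjusted p = 0.152) and Atp6v1h (0.38, adjusted p = 0.17) did not pass, and Ctsf (0.99), Atg7 (0.42) and Ctsa (0.35) passed at smaller sizes.

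**Figure D5:**
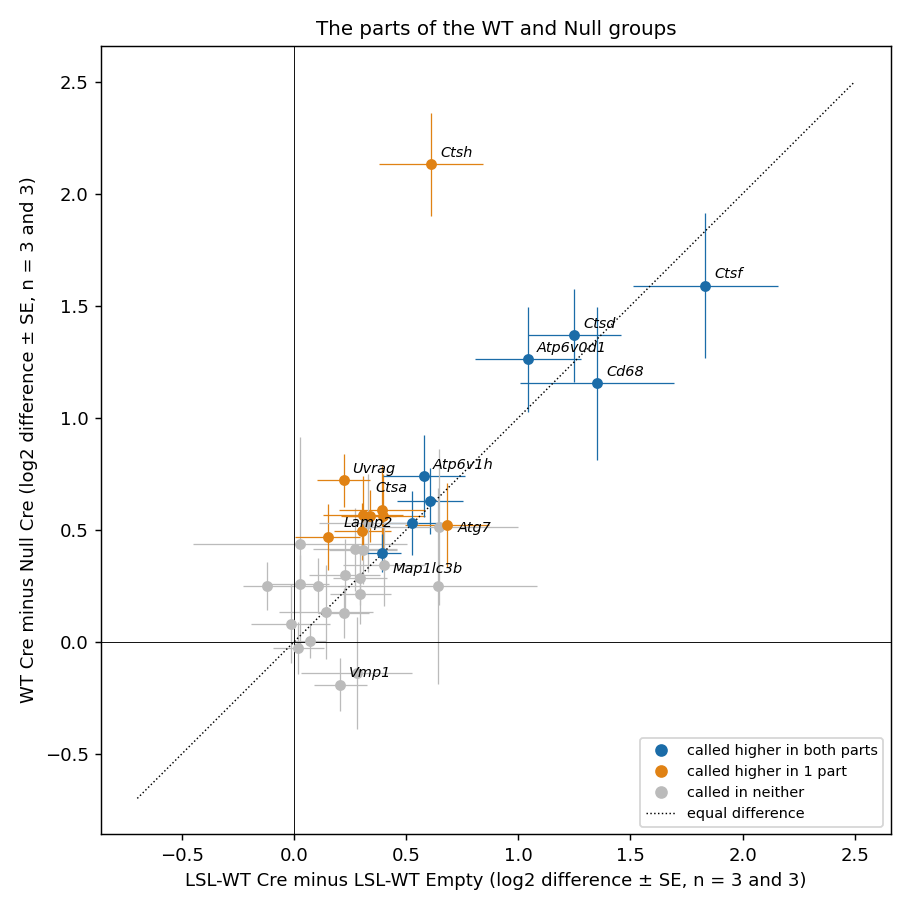
Log2 difference of each member between WT Cre and Null Cre cells (y axis) against that between LSL-WT Cre and LSL-WT Empty cells (x axis), with bars of ± SE and a line of equal differences. Ctsh lies farthest above the line, at 0.61 on the x axis and 2.13 on the y axis, while Ctsd (1.25 and 1.37) and Ctsf (1.83 and 1.59) lie near it.

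In the other component, WT Cre against p53_null Cre cells, 16 members passed as higher and 0 as lower, where 8.75% of all genes passed as higher. Ctsh was first, 4.38-fold higher (2.13 ± 0.23, adjusted p = 4.40e-06), followed by Ctsf (1.59 ± 0.32, adjusted p = 0.00214), Ctsd (1.37 ± 0.21, adjusted p = 1.49e-04), Atp6v0d1 (1.26 ± 0.24, adjusted p = 0.00112) and Cd68 (1.15 ± 0.34, adjusted p = 0.026). Uvrag differed by 0.72 ± 0.12 (adjusted p = 3.37e-04). Xist lay between 11.47 and 11.86 in the WT Cre arrays and between 5.72 and 6.81 in the Null Cre arrays, so the sex of the embryos and p53 cannot be told apart here. The strain was uneven as well, mixed in 1 of 3 WT Cre and 0 of 3 Null Cre arrays. Lamp2 and Gla, both higher, lie on the X chromosome. With Xist as a covariate over all arrays, 8 members passed, where 8.55% of all genes did, with Glb1 now among them (0.67, adjusted p = 0.0317). The covariate ended the calls of Cd68 (1.27, adjusted p = 0.0579), Lamp1, Lamp2, Ctsa, Hexa, Gla, Atp6v1h, Mcoln1 and Ulk2. Without WT replicate 4 or Null replicate 6, 10 members passed, with Cd68, Lamp2, Hexa, Gla, Mcoln1 and Ulk2 lost in both cases. Those genes other than Lamp2 were lost without at least 1 further array too, at 0.885 to 1.196 for Cd68 and 0.33 to 0.64 for the rest, and Lamp1 (0.42) and Atp6v1h (0.61) without WT replicate 5. With probe sets averaged, Atp6v1h gave 0.0118 (adjusted p = 0.979), and Lamp2 (0.37, adjusted p = 0.054), Mcoln1 (0.46, adjusted p = 0.0691) and Ulk2 (0.26, adjusted p = 0.159) did not pass either. Ctsf (0.89) and Ctsa (0.36) passed at smaller sizes there, and Gla was lost under 6 of the 10 other settings (0.49 to 0.67, adjusted p = 0.0536 to 0.124).

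The difference between these 2 components passed in limma for 0 members and 0.00655% of all genes (at an unadjusted p under 0.05, for 4 members and 7.81% of all genes). Ctsh came closest, at 1.52 ± 0.33 (adjusted p = 0.117), and passed with the title number as a block (1.57, adjusted p = 0.0217), where 1.6% of all genes passed. Its means were 9.92 ± 0.27 in LSL-WT Cre and 9.31 ± 0.30 in LSL-WT Empty cells, against 10.15 ± 0.29 in WT Cre and 8.02 ± 0.20 in Null Cre cells (SD, n = 3 each). The WT levels were thus close and the Null levels were not, LSL-WT Empty cells having the higher Ctsh level.

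The array holds 89 probe sets for the 38 genes, 83 of which passed the filter. In a fit over all 33942 probe sets, 36 of the 83 passed as higher in WT than in Null cells and 0 as lower, where 16.9% of all probe sets passed in either direction. Of the 46 that had not been chosen to stand for their gene, 17 passed as higher. Both Ctsh probe sets gave about the same difference (1.37 and 1.36). The second probe set of Ctsf gave 0.17 (adjusted p = 0.253) against 1.71 for the one used.

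Genes of the same pathways outside the 38 were counted from lists of further lysosomal and autophagy genes. Like the 38, these lists were chosen with earlier results of these data known. Of 53 other lysosomal genes tested, 31 were higher in WT than in Null cells and 0 lower, where 10.9% of all genes were higher, with a median difference of 0.43. Aga, which splits sugars from asparagine (1.56 ± 0.14, adjusted p = 6.99e-08), Tpp1, a peptidase (0.89 ± 0.11), and the pump genes Atp6v1d (0.65 ± 0.07) and Atp6ap1 (0.65 ± 0.09) had the largest test statistics. Against Null cells, 6 of the 53 were higher in 25,26 cells (3.02% of all genes), led by Tpp1 (0.90 ± 0.11) and Scarb2, the receptor that brings β-glucocerebrosidase to the lysosome (0.86 ± 0.12). In 53,54 cells 20 were higher than in Null cells (9.22% of all genes), led by Man2b1, the lysosomal α-mannosidase (2.32 ± 0.22). Man2b1 was also the 1 gene of the list that was higher in 53,54 than in WT cells (1.30 ± 0.22, adjusted p = 0.00697). In QM cells 0 passed against Null cells. Against WT cells, 16 were lower in QM cells (5.76% of all genes) and 11 in 25,26 cells (3.36%), led in both by Aga (-2.09 ± 0.17 and -1.82 ± 0.15).

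Of 37 other autophagy genes tested, 13 were higher in WT than in Null cells and 0 lower, where 10.9% of all genes were higher, with a median of 0.29. Rb1cc1, the scaffold of the ULK complex (0.72 ± 0.09), Rab7, which steers fusion with the lysosome (0.41 ± 0.06), and Gabarapl2, an LC3 relative (0.58 ± 0.11), were among them. Against Null cells 2 were higher in 25,26 cells, the cargo receptor genes Tax1bp1 (0.32 ± 0.06) and Nbr1 (0.39 ± 0.09), 11 in 53,54 cells and 0 in QM cells. The shares of all genes were 3.02% for 25,26, which 2 of 37 lies near, and 9.22% for 53,54 cells. Against WT cells 3 were lower in 25,26 (3.36% of all genes) and 9 in QM cells (5.76%), with Rb1cc1 leading both (-0.53 ± 0.09 and -0.71 ± 0.11). In WT Cre against Null Cre cells 7 of the 37 were higher and 2 lower. The shares of all genes there were 8.75% and 7.19%. Dram1 was among the lower (-1.40 ± 0.24, adjusted p = 5.08e-04). In LSL-WT Cre against LSL-WT Empty cells 6 were higher and 0 lower, against 4.8% and 6.89% of all genes.

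Markers of other cells were read beside these results. Cd68 and several cathepsins are abundant in macrophages. Of 20 macrophage markers, 18 were on the array and 12 passed the filter. None of the 12 passed between WT and Null cells, with differences from -0.16 to 0.21, where 22.7% of all genes passed in either direction. Ptprc, Itgam, Aif1, Cd52, C1qb and C1qc did not pass the filter. Markers well above the filter level included Cd53 (log2 6.50 to 9.69 over all arrays), Cd14 (6.75 to 8.80) and Laptm5 (6.30 to 7.30). The summed macrophage marker intensity ran from 1015 to 1275 in 25,26, 1011 to 1378 in 53,54, 948 to 1028 in QM, 1014 to 1549 in WT and 965 to 1250 in Null arrays. Cd14 alone passed in 53,54 against Null cells (0.95 ± 0.24, adjusted p = 0.00631), where 9.22% of all genes passed as higher. Col3a1, Dcn, Lum, Pdgfra and Pdgfrb, 5 of 12 fibroblast markers, were lower in WT than in Null cells, between -1.99 and -0.83. Of all genes 11.8% were lower. Of 9 epithelial markers, Krt19 (1.28), Cldn4 (0.94) and Krt18 (0.90) were higher, where 10.9% of all genes were higher. The epithelial list summed to 3456 to 7515 in 25,26, 5082 to 6683 in 53,54, 3565 to 4927 in QM, 4193 to 7092 in WT and 1979 to 4433 in Null arrays. In WT Cre against Null Cre cells the same counts were 5 fibroblast markers lower (-3.16 for Lum being the lowest) and 3 epithelial markers higher (1.18 to 1.90). The shares of all genes were 7.19% lower and 8.75% higher. In LSL-WT Cre against LSL-WT Empty cells 0 of either list passed, where 6.89% of all genes were lower and 4.8% higher. Differences ran from -0.82 to 0.18 (median -0.26) for fibroblast and from -0.21 to 0.66 (median 0.03) for epithelial markers. Against Null cells 0 fibroblast markers passed in 25,26, 53,54 or QM cells, and epithelial markers passed in 53,54 cells alone, where Krt19 (1.28) and Krt18 (1.10) were higher. Of all genes 4.3%, 19.6% and 0.0131% passed in either direction in 25,26, 53,54 and QM cells. In QM against WT cells Pdgfra (1.33) and Col3a1 (0.74) were higher, as were 8.16% of all genes. The part of these marker shifts in any of the comparisons of lysosomal genes was not tested.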

How the data were processed

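Expression was measured on Affymetrix arrays, 1 per sample, in 23 samples. Intensities were normalized by RMA by the authors, per the submitters' processing notes; its version and options are not given in the sources used here. The deposited intensities are on a linear scale, and log2 of the deposited values was taken here. Of 45101 probe sets, 64 controls were left out, and 34945 had 1 symbol in the platform annotation, 932 had several and 9160 were not listed. The probe set with the highest mean stood for each of 18193 genes. A gene was tested where 3 arrays or more exceeded a log2 level of 4.79, the 30th percentile over the table, which gave 15266 genes. The number of arrays limits the precision.

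Groups were compared with limma 3.58.1 in R 4.3.3, with 1 mean per group over all 23 arrays, two-sided, adjusted by Benjamini-Hochberg over all genes tested at a threshold of 0.05. The components of WT minus Null came from a fit with 7 subgroups. The procedure was tested on simulated data. Same-numbered samples deviated together from their subgroup means, so the title number, taken from the sample titles, was also used as a block. All 10 pairs of WT and Null arrays had r over 0.1, with a median of 0.39, against -0.19 for other pairs. Each comparison with at least 3 pairs likewise had every pair over 0.1. Deviations sum to 0 within a subgroup, which in part forces the r of other pairs below 0, so that value is not an independent baseline. WT Cre and Null Cre share only 2 numbers, too few to decide. Alternatives were the filter, the probe set rule, quantile normalization, median centring, the strain, variance settings, fits restricted to the compared groups, leaving out 1 array at a time and, chosen after seeing the data, Xist as a covariate and a fit of every probe set. The members and lists were chosen with earlier results of these data known. Glb1, Lamp1, Lamp2, Ctsd, Tfeb, Map1lc3b and Sqstm1 were to be named whatever their values, with every member that passed a comparison, and up to 4 genes per further list and comparison by test statistic; other members that are named were chosen after their values were seen.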

Additional observations from a re-analysis of the deposited data

Results flagged for a closer look

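In 8 of 111 groups of 5 or 6 arrays checked (37 members in 25,26, WT and Null cells), 1 array stood apart from the rest of its group by the gap to its nearest neighbour; chance flags about 5% of groups. In 25,26 cells, replicate 2 held 4 of them. Its Ctsb level was 14.08 (log2), against 13.58 to 13.72 in the other 4 arrays, its Atg7 level 8.58 against 8.05 to 8.18, its Wipi1 level 11.14 against 10.46 to 10.65, and its Npc2 level 13.44 against 13.52 to 13.54. In WT cells, Ctsk was at 7.74 in replicate 2, against 9.16 to 9.96 in the others, and Tfeb at 7.58 in replicate 1, against 7.18 to 7.32. In Null cells, replicate 4 had Atg7 at 8.31, against 8.01 to 8.11, and Gabarapl1 at 12.19, against 11.38 to 11.68.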

How the results depend on the processing

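With the title number as a replicate block, the members called numbered 24 for 53,54 minus Null, 12 for 25,26 minus Null, 8 for 25,26 minus WT, 20 for QM minus WT, 25 in the F test, 20 for LSL-WT Cre minus LSL-WT Empty and 1 for the difference between these parts of WT minus Null, in place of 15, 5, 5, 11, 15, 9 and 0. The block ended no member's call, and it left 0 for QM minus Null and 53,54 minus WT. Fits on the compared arrays alone called 1 for 25,26 minus WT (4.24% of all genes) and 6 for QM minus WT (8.41%). They called 4 for LSL-WT Cre minus LSL-WT Empty (5.29%) and 7 for WT Cre minus Null Cre (7.77%). With Xist as a covariate, 2 members were called for 25,26 minus Null (2.27% of all genes) and 8 for WT Cre minus Null Cre (8.55%). With 1 array left out in turn, the counts ran from 17 to 22 for WT minus Null, 3 to 5 for 25,26 minus Null, 10 to 15 for 53,54 minus Null, 1 to 5 for 25,26 minus WT, 5 to 12 for QM minus WT, 13 to 18 in the F test, 5 to 8 for LSL-WT Cre minus LSL-WT Empty and 10 to 16 for WT Cre minus Null Cre, and stayed at 0 for QM minus Null, 53,54 minus WT and the difference between the parts. The shares of all genes with 1 array left out are not given here. Of the 21 members called in WT minus Null, 14 were called under every setting and with every array left out. The value for Tfeb, WT minus Null, at -0.00, turned to 0.0125 with quantile normalization, 0.00625 with median centring and 0.0109 with the Xist covariate. With 1 array left out it ran from -0.0587 to 0.0239, above 0 for WT replicates 2, 3 and 4 and Null replicates 1 and 4; no called difference changed sign. The causes were not tested. Ctss lay below the filter level, where the array cannot show a difference.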
